A study of Arabidopsis thaliana with 18 samples.

Results

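The calmodulin-like protein (CML) genes are the plant calcium sensors most closely related to calmodulin, and 46 of the 32833 genes in the expression tables carry a CML symbol in the gene name column. Members were chosen by name, as all genes named CML followed by a number. CML30 (AT2G15680) was in addition selected on its read counts in GNLox seedlings with sucrose, so its values are given as a description without a test. The libraries were made from whole Arabidopsis thaliana seedlings, all in the Columbia ecotype, grown for 3 days in the dark at 21 °C on 1/2 Murashige and Skoog medium. There were 3 genotypes. These were the wild type Col-0, the double mutant gnc gnl, which carries mutations in GNC and GNL, a pair of genes for B-GATA transcription factors, and the transgenic line GNLox, an overexpressor of GNL. The labels do not give the mutant alleles, the promoter of the transgene or the number of independent lines. Each genotype was grown without sucrose and with 1% sucrose, with 3 libraries per group and 18 in all. The labels do not say that replicates came from separate cultures, so p-values measure the spread between these libraries, which may be technical.

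A CML protein binds calcium through EF hands and has no enzymatic activity of its own. When cytosolic calcium rises after touch, wounding, pathogen attack, cold or salt, the protein changes shape and binds a target such as a kinase, a pump, a transporter or a transcription factor. Many CML genes are themselves induced by such stimuli, and members differ in tissue, in subcellular location and in target. In seedlings grown in darkness, CML39 is known for a role in establishment on medium that lacks sugar.

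Gene-assigned reads ranged from 27362791 to 41942516 per library, and the CML genes together took 0.0291 to 0.0987% of them. Nuclear ribosomal RNA took 1 to 25.4% of reads and plastid genes took 0.915 to 23.3%. In GNLox ribosomal RNA took 4.96 to 25.4% without and 1 to 4.4% with sucrose. In gnc gnl it took 11.8 to 23.2% without and 4.76 to 11.1% with sucrose, and in Col-0 the groups overlapped. Plastid shares were lower with sucrose, without overlap, in all 3 genotypes. Changes with sucrose therefore coincide with a change in library composition. The 3 libraries above 20% ribosomal RNA were GNLox without sucrose replicate 3, gnc gnl without sucrose replicate 2 and Col-0 with sucrose replicate 1. GNL stood at 5870 ± 640 CPM (reads scaled to library size; SD, n = 3) in GNLox without sucrose and 13.5 ± 7.99 CPM in Col-0 without sucrose. With sucrose it stood at 4190 ± 1240 and 1.9 ± 0.808 CPM. In the libraries labelled gnc gnl, GNC was at 9 ± 0.426 CPM without sucrose, lower than the 27.4 ± 9.18 CPM of Col-0 (edgeR adjusted p 0.0195). On sucrose the GNC levels were 5.99 ± 0.633 CPM in gnc gnl and 14.4 ± 3.65 CPM in Col-0, a difference that did not pass (0.112). GNL was at 9.61 ± 2.17 CPM there without sucrose (0.526 against Col-0) and at 4.12 ± 1.1 CPM with sucrose (0.252), so its transcript level does not check the label, and directions for this genotype rest on the labels. The etiolated seedling markers PORA, PIF3, PIF1 and HLS1 had reads in every group, with a summed level of 164 to 468 CPM per library.

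Transcript levels of the CML genes spanned several orders of magnitude. On the deposited TPM scale, which divides by gene length, CML35 was highest with a mean of 192 over the 18 libraries. It was followed by CML5 with a mean TPM of 119, CML9 with 97.1, CML50 with 90.9 and CML13 with 73.1. CML9 is known from abscisic acid and salt responses and from immunity, and CML13 is known as a light chain of plant myosins. None of these 5 passed the edgeR test over all libraries in any comparison below. The ranges over libraries overlapped between neighbours in this order, with CML35 at 94.9 to 235, CML5 at 53.7 to 203 and CML9 at 36 to 139 TPM.

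At the other end, 5 members had no read in any library, namely CML2, CML15, CML29, CML32 and CML33. Another 7 had reads but fell under the low count filter. CML28 had 59 reads over the 18 libraries, CML3 had 41, CML7 had 31, CML31 had 23, CML17 had 5, CML6 had 4 and CML34 had 1. CML7, a gene expressed in root hairs, had no read in the 9 libraries without sucrose and 11, 4 and 16 reads in the Col-0, gnc gnl and GNLox groups with sucrose. That left 34 members above the filter, 33 of them besides CML30. CML2 lies wholly inside AT4G12850, and 97.5% of CML15 is covered by RPL6A, both on the opposite strand. Of the reads of these genes over the 18 libraries, 1254 of 1267 and 59173 of 59190 were unique.

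**Figure D1:**
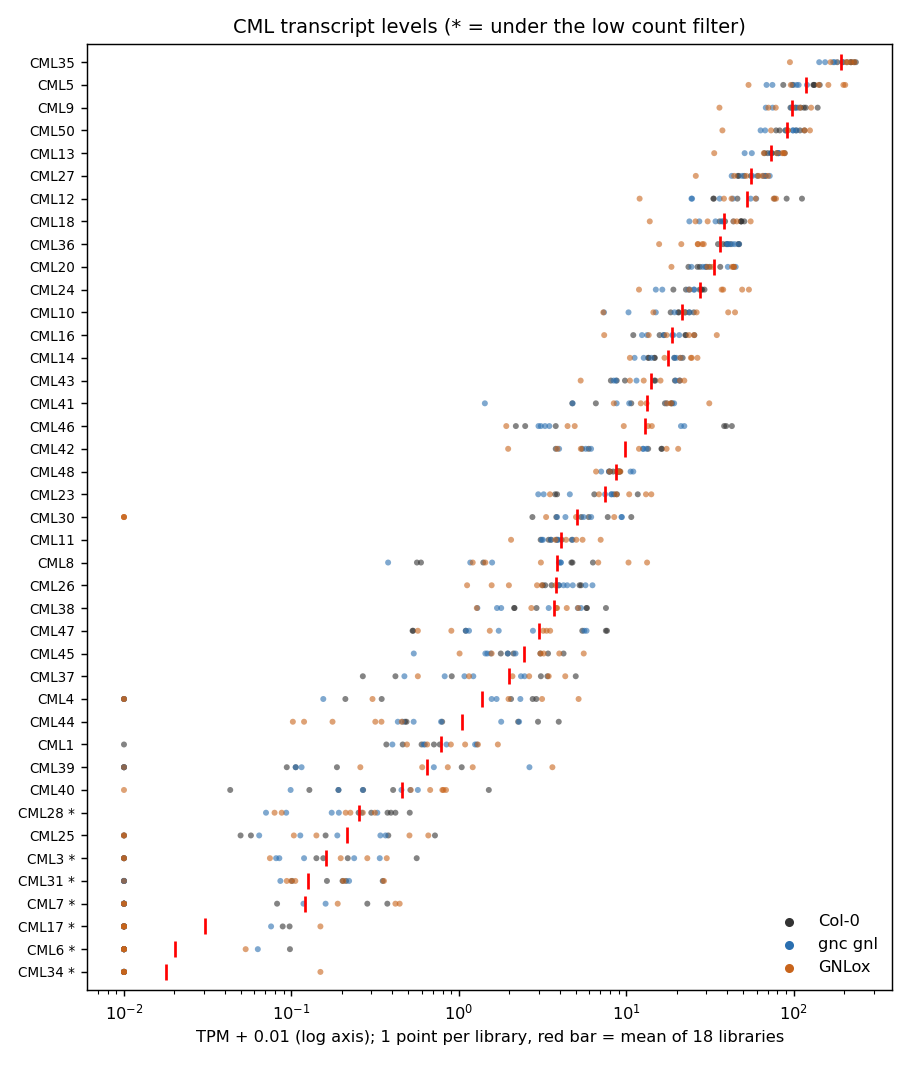
Deposited TPM plus 0.01 of each CML gene with at least 1 read, on a log axis, with 1 point per library coloured by genotype and a red bar at the mean of the 18 libraries. CML35 lies at the top with a mean of 192 TPM, the members marked * fall under the low count filter, and CML30 is the member of intermediate level that has libraries at 0.

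More CML genes rose than fell with sucrose in Col-0. Of the 33 members tested, 17 rose and 1 fell with sucrose at an edgeR adjusted p under 0.05. The called share was 54.5%, near the 49.8% of all 21903 genes tested. By direction, 51.5% of the members rose against 26% of all genes, and 3.03% fell against 23.8% of all genes. The median log2 change of the members was 0.63, and that of all genes was 0. The 17 members with higher TPM had a median of 0.26, and 7 of them rose. The 16 with lower TPM, at means of 0.206 to 9.8, had a median of 1.92, and 10 rose. The 2 medians were 0.1 and 0.97 in gnc gnl and 0.24 and 0.68 in GNLox. The part with lower TPM holds CML4, CML25 and CML39, which passed the low count filter through libraries with sucrose. The filter thus favoured a rise in them, and no median of all genes at like levels is given. The members that rose were CML4, CML8, CML12, CML14, CML16, CML20, CML23, CML25, CML27, CML37, CML38, CML40, CML42, CML43, CML44, CML46 and CML47. CML41 fell.

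In the seedlings labelled gnc gnl, 9 members rose and 2 fell with sucrose, a called share of 33.3% against 32.2% of all genes. The members that rose were 27.3% of those tested against 17.9% of all genes, those that fell 6.06% against 14.3%, and the median log2 change was 0.27 against 0. In GNLox, 14 rose and 2 fell, a called share of 48.5% against 54.8% of all genes. There the members that rose were 42.4% against 28.7% of all genes, those that fell 6.06% against 26.1%, and the median log2 change was 0.46 against 0.03. CML4, CML8, CML20, CML42, CML43, CML46 and CML47 rose in all 3 genotypes. No member rose in one genotype and fell in another, and 10 of the 33 passed the test in none.

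A further fit left out the 3 libraries above 20% ribosomal RNA, which leaves some groups with 2 libraries. There 17 members rose and 0 fell in Col-0, 7 rose and 0 fell in gnc gnl, and 7 rose and 1 fell in GNLox. No share of all genes is given for that fit, so a general loss of calls with fewer libraries cannot be told apart.

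**Figure D2:**
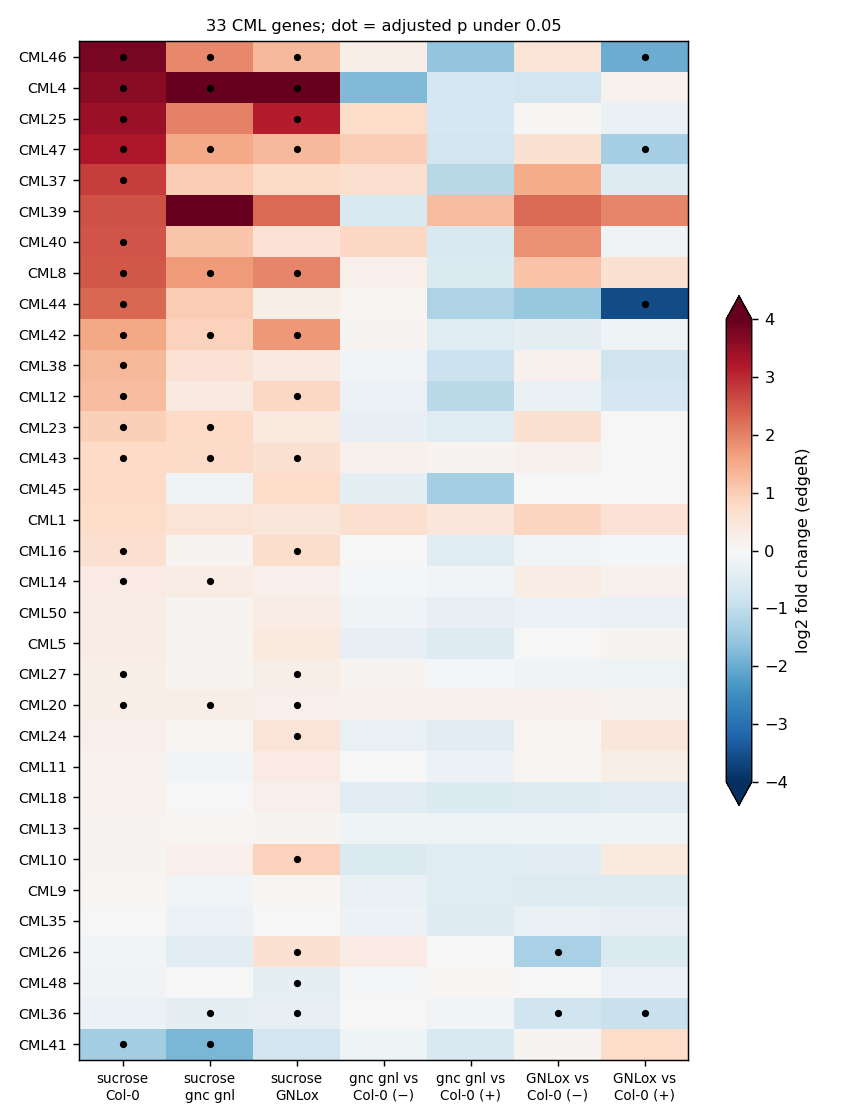
Fitted log2 fold change of the 33 tested CML genes in 7 comparisons, ordered by the change with sucrose in Col-0, with red for higher and blue for lower; − and + mark medium without and with sucrose, and a black dot marks an adjusted p under 0.05. The 3 sucrose columns are mostly red, with 17, 9 and 14 members called higher, and the 4 genotype columns hold 6 dots in all, each of them lower.

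Among members known from immunity, CML46 and CML47 are close relatives linked to salicylic acid signalling and defence. In Col-0, CML46 stood at 1.4, 1.87 and 1.17 CPM without sucrose and at 22.1, 20.9 and 18.2 CPM with sucrose. The groups were far apart, with a log2 change of 3.79 ± 0.51 (SE, n = 3 per group; edgeR adjusted p 4.63e-05). In gnc gnl it stood at 1.78, 1.85 and 1.74 CPM without sucrose and at 1.26, 9.5 and 9.76 CPM with sucrose. Replicate 1 with sucrose, with 46 reads, lay below every library without sucrose, so these groups overlapped, and the log2 change was 1.93 ± 0.49 (edgeR adjusted p 0.00825). This call was lost in a fit of only the groups compared. In GNLox it went from 2.38, 2.18 and 1.61 CPM to 4.13, 5.69 and 5.58 CPM. These groups did not overlap, and the log2 change was 1.3 ± 0.48 (edgeR adjusted p 0.0326), but 5 of 6 fits with 1 library left out lost the call (0.038 to 0.0935). An antisense gene covers 98.2% of CML46 and 75.3% of its reads were unique, and the strand of the reads is not given in the sources used here.

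CML47 showed the same order with fewer reads. In Col-0 it was at 0.358, 0.658 and 0.337 CPM without sucrose and at 3.71, 4.47 and 4.41 CPM with sucrose, a log2 change of 3.22 ± 0.34 (edgeR adjusted p 6.42e-06). In gnc gnl it was at 1.14, 0.824 and 0.696 CPM and then at 1.37, 3 and 3.14 CPM, a log2 change of 1.5 ± 0.32 (edgeR adjusted p 0.00275). In GNLox it was at 0.894, 0.531 and 0.57 CPM and then at 1.82, 1.54 and 1.67 CPM, a log2 change of 1.3 ± 0.33 (edgeR adjusted p 0.00342). No pair of groups overlapped, and the lowest library with sucrose was again gnc gnl replicate 1.

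CML8, another member known from defence against bacteria, was at 0.878, 0.46 and 0.363 CPM in Col-0 without sucrose and at 4.07, 2.8 and 2.56 CPM with sucrose. Its log2 change was 2.47 ± 0.42 in Col-0, 1.69 ± 0.42 in gnc gnl and 1.96 ± 0.38 in GNLox, and the highest library of all, at 6.5 CPM, was GNLox with sucrose replicate 1. CML42, known from leaf hair branching and from defence against insects, was at 3.38, 3.26 and 2.23 CPM in Col-0 without sucrose and at 10, 7.27 and 8.5 CPM with sucrose. It rose by a log2 change of 1.54 ± 0.22 in Col-0, 0.93 ± 0.22 in gnc gnl and 1.73 ± 0.23 in GNLox. CML43, its closest relative, known from the hypersensitive response, changed by 0.81 ± 0.15, 0.75 ± 0.15 and 0.62 ± 0.15 on the log2 scale. Groups with and without sucrose did not overlap for CML8, CML42 or CML43 in any genotype.

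CML41, a protein of plasmodesmata that takes part in immune responses, was the member that fell in Col-0. It was at 10.8, 9.7 and 9.45 CPM without sucrose and at 2.77, 3.34 and 5.28 CPM with sucrose. The groups did not overlap, and the log2 change was -1.38 ± 0.48 (edgeR adjusted p 0.0264). In gnc gnl it went from 4.98, 11.3 and 10.1 CPM to 0.603, 4.64 and 2.29 CPM, a log2 change of -1.82 ± 0.5 (edgeR adjusted p 0.0123). In GNLox it was at 15.8, 8.95 and 7.36 CPM and then at 5.43, 7.72 and 5.69 CPM. The GNLox groups overlapped and the log2 change of -0.78 ± 0.46 did not pass the test (edgeR adjusted p 0.169). The fall in Col-0 rested on few libraries: leaving out 1 library at a time gave adjusted p-values of 0.0232 to 0.0949, and 5 of 6 such fits lost the call. The call in gnc gnl was lost without gnc gnl without sucrose replicate 2 (adjusted p 0.0531), and also without the 3 libraries rich in ribosomal RNA and in a fit of only the groups compared.

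**Figure D3:**
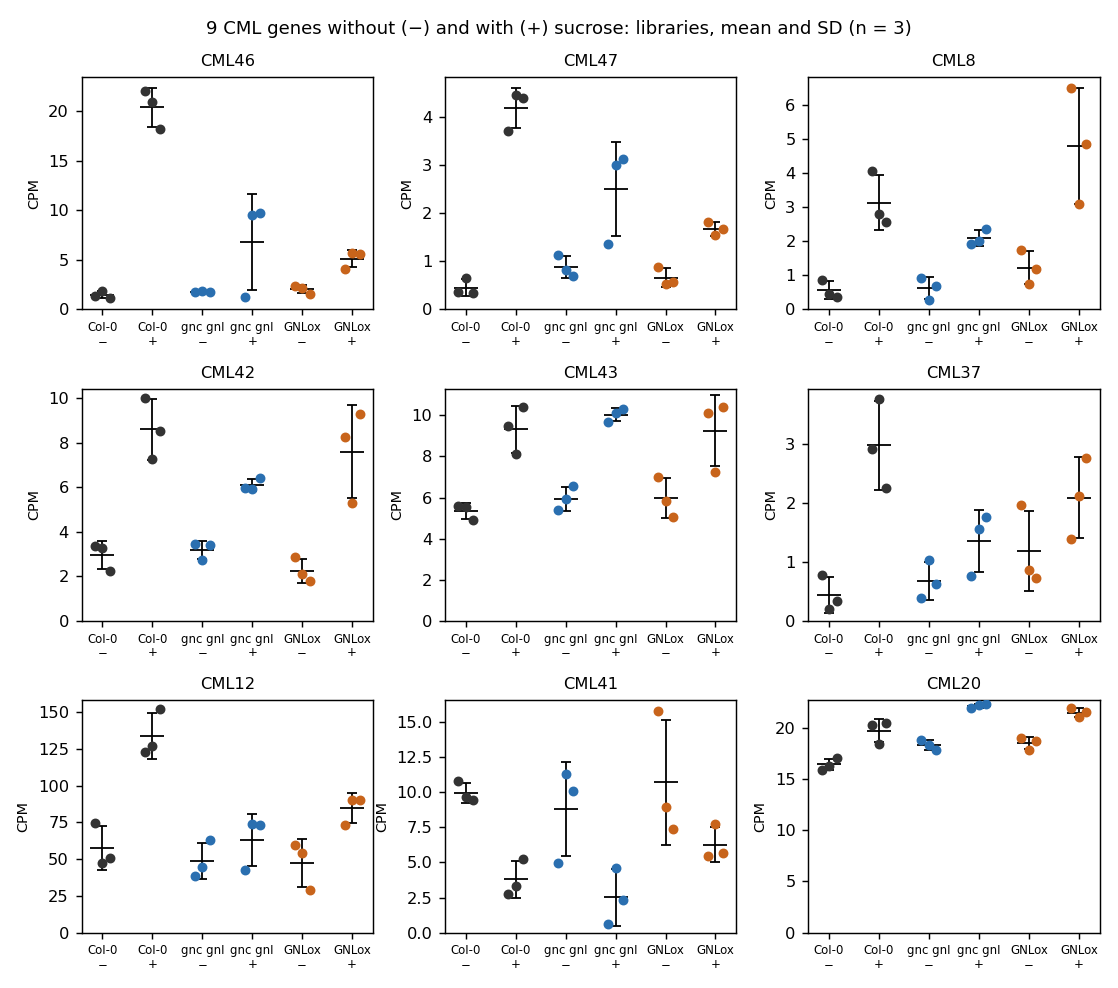
CPM of 9 CML genes in each library, without (−) and with (+) sucrose, with the group mean and SD (n = 3). CML46 reached 18.2 to 22.1 CPM in Col-0 with sucrose and stayed at or below 9.76 CPM in the other genotypes, CML41 is lower with sucrose in Col-0 and gnc gnl and overlaps between the GNLox groups, and 1 gnc gnl library with sucrose lies apart from the other 2 in CML46, CML47 and CML12.

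Members known from touch and wounding formed a mixed group. CML12, which is the touch gene TCH3, was at 74.9, 47.5 and 50.9 CPM in Col-0 without sucrose and at 123, 127 and 152 CPM with sucrose. It rose by a log2 change of 1.22 ± 0.27 in Col-0 (edgeR adjusted p 0.00198) and 0.83 ± 0.27 in GNLox (0.0178), and its change in gnc gnl was 0.37 ± 0.27 (0.313). The call in GNLox was lost without GNLox without sucrose replicate 3 (adjusted p 0.075). CML37, known from wounding and jasmonate responses, went from 0.781, 0.197 and 0.337 CPM to 2.91, 3.75 and 2.25 CPM in Col-0, a log2 change of 2.76 ± 0.51 (edgeR adjusted p 0.000509). Its changes of 1.01 ± 0.5 in gnc gnl and 0.77 ± 0.46 in GNLox did not pass. CML24, the touch gene TCH2, rose in GNLox by 0.55 ± 0.21 (edgeR adjusted p 0.0379) and was at 0.2 ± 0.21 in Col-0 and 0.08 ± 0.21 in gnc gnl. The call in GNLox was lost in 4 of 6 fits with 1 library left out (adjusted p 0.0028 to 0.153). CML23, its close relative, rose in Col-0 by 0.96 ± 0.27 and in gnc gnl by 0.8 ± 0.28, where all 6 fits with 1 library left out lost the call (adjusted p 0.0577 to 0.125).

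CML39 had few reads. In Col-0 its reads were 1, 1 and 0 without sucrose and 11, 2 and 0 with it, 0, 1 and 0 and then 27, 1 and 10 in gnc gnl, and 8, 3 and 0 and then 41, 15 and 11 in GNLox. It was not called in any of the 3, with edgeR adjusted p-values of 0.225, 0.0561 and 0.0857. In gnc gnl it passed by DESeq2 (0.0231) and in the edgeR fit without gnc gnl with sucrose replicate 2 (0.0297). CML38, known from hypoxia and wounding and a neighbour of CML39, rose in Col-0 with a log2 change of 1.33 ± 0.39 (adjusted p 0.00993). Its changes in gnc gnl, 0.59 ± 0.4, and in GNLox, 0.35 ± 0.39, did not pass.

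The list of 20 touch and wound genes was not uniformly higher. In Col-0, 6 rose and 1 fell with sucrose, in gnc gnl 3 rose and 2 fell, and in GNLox 7 rose and 1 fell. The called genes were thus 7, 5 and 8 of 20, beside 49.8%, 32.2% and 54.8% of all genes. Its summed level was 399 to 489 CPM without and 409 to 456 CPM with sucrose in Col-0. Of 11 hypoxia genes, 3 rose and 2 fell in Col-0. In gnc gnl 0 rose and 3 fell, and in GNLox 1 rose and 2 fell. Of all genes, 26%, 17.9% and 28.7% rose and 23.8%, 14.3% and 26.1% fell in these genotypes. The summed level of the hypoxia genes in Col-0 was 153 to 203 CPM without and 168 to 201 CPM with sucrose. In gnc gnl it was 152 to 172 CPM without and 126 to 144 CPM with sucrose. In GNLox it was 173 to 193 and 142 to 153 CPM, so it was lower with sucrose without overlap in these 2 genotypes. The summed levels of both lists overlapped between the Col-0 groups.

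CML20, a centrin that is also known to restrain abscisic acid responses in guard cells, was at 15.9, 16.3 and 17 CPM in Col-0 without sucrose and at 20.3, 18.4 and 20.4 CPM with sucrose. The log2 change was 0.26 ± 0.06 in Col-0, 0.27 ± 0.06 in gnc gnl and 0.21 ± 0.06 in GNLox, and the groups did not overlap in any genotype. All 3 were called higher, and the call in GNLox was lost in a fit of only the groups compared. CML36, known to bind and activate a plasma membrane calcium pump, had log2 changes of -0.37 ± 0.1 in gnc gnl (edgeR adjusted p 0.0141) and -0.33 ± 0.1 in GNLox (0.0146), both called lower. In Col-0 its change was -0.25 ± 0.1 (0.058). Leaving out 1 library lost the call in 2 of 6 fits in gnc gnl, those without replicate 2 without sucrose and without replicate 1 with sucrose, and in 1 of 6 in GNLox, that without replicate 1 with sucrose. CML48 was called lower in GNLox, with a log2 change of -0.36 ± 0.14 (edgeR adjusted p 0.0375), and 3 of 6 fits with 1 library left out lost that call. CML14, like CML13 a myosin light chain, rose by 0.31 ± 0.1 in gnc gnl (adjusted p 0.0243), and 5 of 6 such fits lost it. CML10, known to activate an enzyme of ascorbate synthesis, rose by 0.92 ± 0.33 in GNLox (adjusted p 0.0264), where the groups overlapped and 4 of 6 such fits lost the call.

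Several of the largest fold changes rested on few reads. CML25, known from pollen tubes and root hairs, was covered in Col-0 by 1, 0 and 1 reads without sucrose and by 7, 3 and 16 with it. The pooled ratio was 12.9 (exact 95% counting interval 3.23 to 112), and the interval covers counting error only. In GNLox the ratio was 9.95 (2.5 to 86.4), and the call was lost without replicate 1 of either GNLox group (adjusted p up to 0.0657). CML40 in Col-0 was covered by 4, 4 and 1 reads without sucrose and by 10, 37 and 7 with it, a log2 change of 2.52 ± 0.74 (edgeR adjusted p 0.0109). That call was lost without Col-0 with sucrose replicate 2 or without Col-0 without sucrose replicate 3, with adjusted p-values up to 0.113. CML44 in Col-0 was covered by 9, 8 and 18 reads without sucrose and by 39, 54 and 81 with it, a log2 change of 2.29 ± 0.51 (edgeR adjusted p 0.00199).

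CML4, a protein of endomembranes, was covered in Col-0 by 3, 0 and 6 reads without sucrose and by 39, 29 and 44 with it, a log2 change of 3.61 ± 0.72 (edgeR adjusted p 0.000822). In gnc gnl it had 0, 0 and 2 reads and then 30, 20 and 28, a pooled ratio of 28.8 (exact 95% counting interval 7.71 to 242). In GNLox it had 5, 0 and 0 reads and then 74, 31 and 51 (edgeR adjusted p 0.000227). The groups did not overlap in any genotype. None of these reads was unique, and CML4 lies wholly inside the exons of AT3G59435 on the opposite strand. The 2 genes together held 20 to 30 reads per library in Col-0 without sucrose and 41 to 48 with sucrose, and CML4 took 0 to 30% and 70.7 to 91.7% of them.

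Root hair markers rose with sucrose along with these members. Of all genes, 26% rose in Col-0, 17.9% in gnc gnl and 28.7% in GNLox. All 7 root hair markers rose in Col-0, and 6 of 7 rose in gnc gnl and in GNLox. Their summed level went from 10.6 to 15.2 CPM without sucrose to 62.6 to 75.4 CPM with sucrose in Col-0, from 11.8 to 16 CPM to 45.3 to 48.1 CPM in gnc gnl and from 9.43 to 12.7 CPM to 38.5 to 60.2 CPM in GNLox. PRP3, a cell wall protein gene of root hairs, went from 0.35 ± 0.176 to 16.6 ± 2.79 CPM in Col-0. The part of root hairs in the rise of CML25, CML7 or any other member was not tested. In whole seedlings, a change in the number of cells of a type and a change in RNA per cell cannot be told apart. The 4 root endodermis markers did not pass the test in Col-0, with summed levels of 204 to 324 CPM without and 226 to 266 CPM with sucrose. There 2 of 5 guard cell markers fell, beside 23.8% of all genes. The guard cell marker SCAP1 fell in gnc gnl, beside 14.3% of all genes. In GNLox the guard cell markers FAMA, SCAP1 and MYB60 and the endodermis marker CASP5 fell, beside 26.1% of all genes.

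The effect of the mutations was compared within each medium. Against Col-0 without sucrose, 0 of the 33 members passed by edgeR or by DESeq2 in seedlings labelled gnc gnl. By edgeR 1.29% of all genes passed there, and 2 members had an unadjusted p under 0.05. With sucrose, 0 passed by edgeR, where 0.16% of all genes did, 15 had an unadjusted p under 0.05, and DESeq2 called 4, all lower. No share of all genes is given for the unadjusted p or for DESeq2, so those counts have no background here. The median log2 difference of the members with sucrose was -0.5 against 0 for all genes. The libraries of both genotypes did not overlap for 22 of the 33 members. This is a larger share than the 32.3% of all genes (7069 of 21903). The 4 were CML12 at -1.09, CML35 at -0.51, CML45 at -1.33 and CML46 at -1.57 on the log2 scale of the edgeR fit. Their edgeR adjusted p-values were 0.136 to 0.162. CML46 in gnc gnl with sucrose replicate 1 lay far below the other libraries of its group. Without that library its log2 difference shrank to -1.08 and passed by edgeR (adjusted p 0.0342). CML12 was at 42.5, 73.6 and 73.3 CPM in gnc gnl with sucrose, below the 123, 127 and 152 CPM of Col-0, and CML35 was at 104, 121 and 115 CPM against 160, 162 and 162 CPM. These groups did not overlap.

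Few CML genes were called different between GNLox and Col-0. An unadjusted p under 0.05 was reached by 11 of the 33 members without sucrose and by 10 with it. No share of all genes is given for that measure. The groups did not overlap for 5 of 33 members without sucrose, beside 6525 of 21903 genes (29.8%). With sucrose they did not overlap for 14 of 33, beside 8181 of 21903 genes (37.4%). Without sucrose 2 members were lower and none higher, a called share of 6.06% against 13.5% of all genes in either direction and 7% called lower. With the replicate number as a block CML8 also passed as higher (log2 1.12 ± 0.31, adjusted p 0.0316). CML26 was at 1.95, 2.76 and 2.23 CPM in Col-0 and at 1.02, 0.811 and 0.984 CPM in GNLox. The log2 difference was -1.3 ± 0.23 (edgeR adjusted p 0.00238). CML36 was at 28.8, 25.1 and 22 CPM in Col-0 and at 14.9, 14.2 and 14.3 CPM in GNLox. Its log2 difference was -0.8 ± 0.1 (edgeR adjusted p 0.000615). Neither gene's groups overlapped. The count rose to 4 without Col-0 without sucrose replicate 1, with the added members higher. It rose to 5 without GNLox without sucrose replicate 1, with the added members lower. DESeq2 called 4, with the added members higher. No share of all genes is given for these fits.

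With sucrose 4 members were lower in GNLox than in Col-0 and none higher, 12.1% against 20.4% of all genes called in either direction and 10.2% called lower. CML36 was at 21.4, 21 and 21.5 CPM in Col-0 and at 9.9, 11.6 and 13 CPM in GNLox. The log2 difference was -0.89 ± 0.1 (edgeR adjusted p 0.000275), and the gene was called lower on both media. CML44 had 39, 54 and 81 reads in Col-0 and 2, 9 and 7 in GNLox. Its log2 difference was -3.59 ± 0.56 (edgeR adjusted p 0.00103). CML46 was lower by a log2 difference of -1.99 ± 0.45 (0.00746) and CML47 by -1.32 ± 0.29 (0.00628), with no overlap between libraries. All 4 calls held in every fit that left out 1 library.

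**Figure D4:**
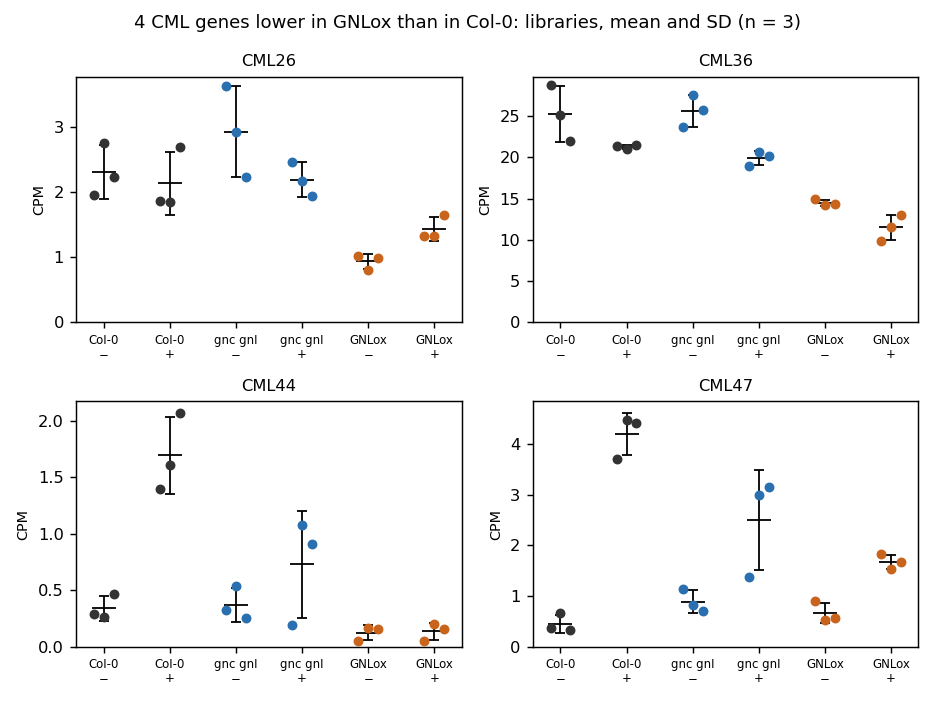
CPM of CML26, CML36, CML44 and CML47 in each library, without (−) and with (+) sucrose, with the group mean and SD (n = 3). CML36 is lower in all 6 GNLox libraries, at 9.9 to 14.9 CPM, than in any Col-0 library, and CML44 stays at or below 0.198 CPM in GNLox while it reaches 1.4 to 2.07 CPM in Col-0 with sucrose.

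GNL is a transcription factor named for the motif GATA, so the 250 bases before the annotated start of the 4 members lower in GNLox with sucrose are shown. They were read from the RefSeq TAIR10.1 genome, in which all 46 members have the same coordinates as in the expression tables, and each is written 5′ to 3′ on the gene's strand. Capitals mark the letters GATA on either strand, which read as TATC on the opposite one.
CML46, chr5:15882929-15883178, plus strand: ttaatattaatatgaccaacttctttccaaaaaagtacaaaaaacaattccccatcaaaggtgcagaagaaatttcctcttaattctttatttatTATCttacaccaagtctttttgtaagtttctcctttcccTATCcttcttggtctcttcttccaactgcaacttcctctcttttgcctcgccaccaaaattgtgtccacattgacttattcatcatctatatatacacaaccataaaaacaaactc
CML47, chr3:17497165-17497414, minus strand: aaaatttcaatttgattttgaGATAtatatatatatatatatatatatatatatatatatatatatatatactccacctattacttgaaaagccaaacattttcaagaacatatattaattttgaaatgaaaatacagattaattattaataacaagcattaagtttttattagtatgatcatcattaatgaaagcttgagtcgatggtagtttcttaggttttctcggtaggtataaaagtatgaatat
CML44, chr1:7553976-7554225, minus strand: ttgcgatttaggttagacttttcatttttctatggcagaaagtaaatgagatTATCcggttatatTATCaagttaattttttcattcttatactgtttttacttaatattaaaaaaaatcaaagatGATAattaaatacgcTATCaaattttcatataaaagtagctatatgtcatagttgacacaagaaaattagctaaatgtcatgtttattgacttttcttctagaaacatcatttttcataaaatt
CML36, chr3:3154973-3155222, plus strand: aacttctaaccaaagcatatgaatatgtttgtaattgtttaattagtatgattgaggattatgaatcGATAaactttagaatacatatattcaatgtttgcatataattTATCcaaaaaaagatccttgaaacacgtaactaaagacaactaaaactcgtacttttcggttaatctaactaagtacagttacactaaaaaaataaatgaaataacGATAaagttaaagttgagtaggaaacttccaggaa

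GATA occurred 2 times before CML46, 1 time before CML47, 4 times before CML44 and 3 times before CML36. These letters are common: 87% of 27419 nuclear protein-coding genes and 85.3% of the 34 members above the filter hold them in the same window. TTGAC, the core of the W box bound by WRKY factors, was found before 44.9% of all genes and 47.1% of members, with 2 matches before CML44, 1 before CML46 and none before CML47 or CML36. CGCG, the core of the element bound by CAMTA factors, was found before 10.1% of all genes and 11.8% of members, and CACGTG before 6.48% and 2.94%. All were counted on both strands, and overlapping matches of a motif on the 2 strands count separately unless they begin at the same base. A match is a description of the letters and not of binding.

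The sucrose response itself was compared between genotypes as an interaction. No member passed by edgeR in GNLox against Col-0, where 1.12% of all genes did. For the unadjusted p and for DESeq2 no share of all genes is given. An unadjusted p under 0.05 was reached by 5 members, and DESeq2 called 2, both with a smaller rise in GNLox. These were CML47, whose log2 response was smaller by -1.92 ± 0.47 (95% interval -2.94 to -0.9; edgeR adjusted p 0.0613), and CML46, at -2.49 ± 0.68 (-3.97 to -1.01; 0.0886). A fit of only the 4 groups compared also called both (0.0457 and 0.00617). For gnc gnl against Col-0 no member and no gene passed by edgeR or, among the members, by DESeq2, and 4 members had an unadjusted p under 0.05. CML47 differed by -1.73 ± 0.46 (edgeR adjusted p 0.384) and CML46 by -1.85 ± 0.69 (0.571). The lower estimates for CML46 and CML47 in both genotypes are read against the same Col-0 libraries. None of them passed by edgeR over all libraries. Those in gnc gnl include its replicate 1 with sucrose, the lowest library with sucrose for both genes.

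CML30 stood apart from the other members in GNLox with sucrose. The protein is known to be targeted to mitochondria. The gene lies at chr2:6830995-6831641 on the plus strand of TAIR10. Col-0 libraries held 48, 85 and 161 of its reads without sucrose and 31, 64 and 80 with it. It had 43, 61 and 50 reads in gnc gnl without sucrose and 102, 94 and 93 in gnc gnl with sucrose. In GNLox it had 47, 108 and 59 reads without sucrose and 0, 0 and 0 with sucrose. The 15 other libraries thus held 31 to 161 reads each. With a floor of 3 counts over the group, CML30 was at least 96.7-fold lower in GNLox with sucrose than in GNLox without it, and at least 75.1-fold lower than in Col-0 with sucrose. Of the 32833 genes, CML30 was the only one with no read in a whole group and 10 or more reads in each library of the other groups. This screen uses the reads on which CML30 was selected, so it describes the pattern and adds no evidence.

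None of the reads assigned to CML30 was unique in any library. The gene lies wholly inside the exon of PCMP-H66 (AT2G15690), a pentatricopeptide repeat protein gene at chr2:6830995-6833777 on the minus strand, and all 647 bases of CML30 fall in the 3′ untranslated part of that gene. Reads of these 2 genes can be told apart only by strand, and whether the counting used strand is not given in the sources used here. PCMP-H66 had 513, 782 and 615 reads in GNLox with sucrose, of which 225, 298 and 255 were unique. Scaled to library size, its unique reads stood at 6.01 ± 0.502 CPM there, at 5.96 ± 0.837 CPM in gnc gnl without sucrose and at 4.24 to 5.56 CPM in the other 4 group means. The pair as a whole stood at 14.7 ± 2.2 CPM in GNLox with sucrose and at 14.1 ± 1.14 CPM in GNLox without it (SD, n = 3). In Col-0 it was at 16.2 ± 2.47 CPM without and 13.3 ± 0.565 CPM with sucrose, and in gnc gnl at 17.3 ± 1.31 CPM without and 16.1 ± 0.981 CPM with sucrose. The level of the pair in GNLox with sucrose lay within the range of the other group means. CML30 took 8.33 to 23.3% of the pair's reads in the 15 other libraries and 0% in GNLox with sucrose. The absence of CML30 reads and a different division of the pair's reads cannot be told apart.

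**Figure D5:**
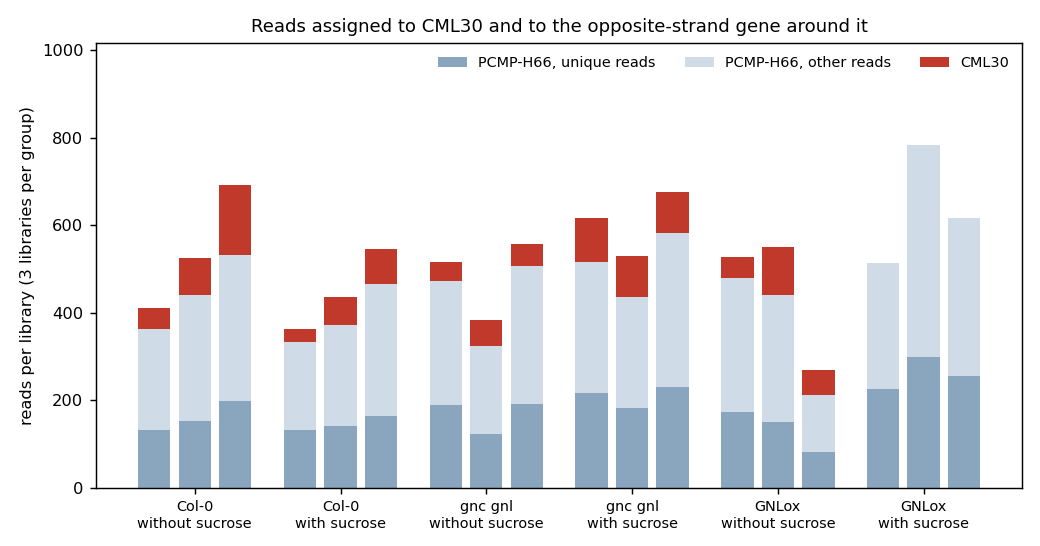
Reads per library assigned to PCMP-H66, split into unique (dark blue) and other reads (pale blue), with the reads assigned to CML30 stacked on top (red), for 3 libraries in each group. The red segment is present in 15 libraries, at 31 to 161 reads, and missing in the 3 GNLox libraries with sucrose, while the whole bars there reach 513 to 782 reads, not scaled to library size.

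Loss of unique reads was common among nested genes and not particular to CML30. Of 513 genes that lie inside another gene and have at least 100 reads, 173, or 33.7%, had no unique read, against 0.341% of 21392 genes that do not. CML13 was another such member. It lies in the 5′ untranslated part of AT1G12320 and kept 82.2 to 91.3% of that pair's reads in every library.

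Among the calmodulins, the calcineurin B-like sensors and 4 further CML loci, no gene fell with sucrose, and some rose. The shares of all genes that rose were 26% in Col-0, 17.9% in gnc gnl and 28.7% in GNLox. Of 7 calmodulin genes, 4 rose in Col-0, 3 in gnc gnl and 6 in GNLox. CAM7 went from 36.2 ± 3.76 to 65.3 ± 3.39 CPM in Col-0 (log2 0.85 ± 0.14, edgeR adjusted p 0.00026), and the near-identical coding sequences of calmodulin genes leave the division of their reads uncertain. Of 9 tested calcineurin B-like (CBL) sensors, which recruit CIPK kinases, 5 rose in Col-0, 5 in gnc gnl and 7 in GNLox. CBL2 went from 6.58 ± 0.506 to 10.1 ± 1.13 CPM in Col-0. Of 4 genes that belong to the CML family by locus but carry another name in the tables, 1 rose in Col-0 and 2 rose in each of the other genotypes. AT4G26470, known as CML21, went from 6.59 ± 1.5 to 17.9 ± 1.08 CPM in Col-0.

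Genes of kinases and of calcium transport moved in both directions, beside 26% of all genes higher and 23.8% lower in Col-0. Of 26 CIPK kinases, 5 rose and 9 fell in Col-0, with CIPK7 going from 30.2 ± 3.87 to 76.4 ± 3.33 CPM and CIPK21 from 43.2 ± 0.186 to 27.9 ± 1.98 CPM. Of 27 tested calcium-dependent protein kinases (CPK), 11 rose and 6 fell in Col-0, with CPK2 going from 4.57 ± 0.915 to 15.7 ± 3.37 CPM. Of 38 tested calcium channels, pumps and exchangers, 15 rose and 10 fell, and ACA9, a calcium pump known from pollen, went from 0.144 ± 0.0345 to 3.37 ± 1.37 CPM. Among the CAMTA factors, transcription factors that calmodulin binds, none rose in any genotype. Of 6, 5 fell in Col-0, 4 in gnc gnl and 5 in GNLox, beside 23.8%, 14.3% and 26.1% of all genes. CAMTA5 went from 249 ± 12.7 to 160 ± 15.8 CPM in Col-0. In the same comparison the median log2 changes were 0.5 for the calmodulins, 0.61 for the CBL genes, -0.06 for the CIPK genes, 0.21 for the CPK genes and -0.32 for the CAMTA genes, beside 0.63 for the CML genes and 0 for all genes.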

How the data were processed

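RNA-seq libraries of 18 seedling samples were grouped by the labels' genotype and treatment fields, with 3 per group. Per the file headers, the authors deposited total and unique read counts per gene together with TPM and RPKM values. The genome build was TAIR10, per the submitters' processing notes. For the aligner, the counting program and the strand setting, the entry is "not given in the sources used here". The deposited RPKM values were read but used for no result.

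Total gene counts were filtered with filterByExpr, scaled by TMM and fitted over all 6 groups with edgeR 4.0.16 (quasi-likelihood test, Benjamini-Hochberg adjustment over 21903 genes, threshold 0.05, 12 residual degrees of freedom) in R 4.3.3. CPM uses TMM-scaled library sizes; SE is the log2 change divided by the square root of F, and 95% intervals use 12 degrees of freedom. The fit was tested on simulated data. Alternatives included DESeq2 1.42.0.

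The members and gene lists were chosen with earlier results of these data known. In each comparison up to 8 called members with the largest change in each direction were named, with the 5 highest by TPM and those under the filter. CML12, CML20, CML23, CML24, CML37, CML38, CML39, CML42, CML43 and CML45 also appear where that rule did not name them, chosen after their values were seen.

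Same-numbered replicates deviated together, with correlations of 0.409, 0.126 and 0.26, in GNLox against Col-0 without sucrose, and so counted as paired there; in the 6 other pairs of groups compared they did not.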

Additional observations from a re-analysis of the deposited data

How the results depend on the processing

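Of the 51 calls of members in all comparisons, 33 passed under every alternative that gave a value, and 0 changed sign. With 1 library left out at a time the number of called members was 16 to 18 for the sucrose effect in Col-0. For that effect it was 7 to 11 in gnc gnl, and 9 to 19 for GNLox. It was 2 to 5 for GNLox against Col-0 without sucrose, 4 to 5 with sucrose, 0 to 1 for gnc gnl against Col-0 with sucrose, and 0 in the 3 remaining comparisons. The 7 in gnc gnl came without its replicate 2 on medium without sucrose, the 9 in GNLox without its replicate 3 without sucrose, and 10 without its replicate 3 with sucrose; the cause was not tested. Without the 3 libraries over 20% ribosomal RNA the sucrose counts were 7 in gnc gnl and 8 in GNLox, with fewer samples in the fit. A fit of only the groups compared called 9 members for sucrose in GNLox and 2 for the GNLox response difference. DESeq2 called 4 for gnc gnl against Col-0 with sucrose, 4 for GNLox against Col-0 without sucrose and 2 for the GNLox response difference; the cause was not tested. With the replicate number as a block, 51 of the 51 calls passed, CML39 passed in addition for sucrose in gnc gnl (0.0138) and GNLox (0.0161), and the counts were 18, 12 and 17 for sucrose and 3 and 4 for GNLox against Col-0. By unique reads CML4, CML13 and CML30 have no value or a value of 0: the CML30 difference between the GNLox groups is 2.41 CPM by all reads and 0 by unique reads. Few reads in the groups without sucrose limit the changes of CML4, CML25, CML39 and CML40. No share of all genes is given for the alternative fits, so their counts of called members have no background here.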
